A study of Mus musculus with 6 samples.

Results

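The genes described here encode the machinery that brings newly made proteins into the endoplasmic reticulum (ER), folds them there and carries them to the Golgi. They were chosen by symbol from the bulk RNA-seq count tables: every gene of the Sec11, Sec13, Sec16, Sec22, Sec23, Sec24, Sec31, Sec61, Sec62 and Sec63, Pdia, COPI coat (Copa, Copb, Cope, Copz), Tmed, Ssr and Spcs families, and Hspa5, Hsp90b1, Calr, Canx, P4hb, Creb3l1, Creb3l2, Xbp1 and Atf6. The rule found 57 genes among the 16279 listed in either table, 48 by family pattern and 9 by name, on 18 chromosomes. Of these, 56 are listed for both cell types and 1, Sec16b, only for CPCCs. They fall into 10 classes by role. RefSeq holds 4 further coding genes that fit the patterns (Pdia2, Sec31b, Tmed6 and Tmed11) and that neither table lists.

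The study compared male F1 hybrid mouse embryonic stem cells (mESCs) with cardiac precursor cell cultures (CPCCs), with 3 libraries of each. All cells carried 1 genome from a C57BL/6 mother (C57BL/6J in the study's methods) and 1 from a CAST/EiJ father, so both groups share the hybrid background. The mESC libraries come from single-cell clones of separate blastocyst-derived lines, grown with LIF and inhibitors of MEK and GSK3. The CPCCs came from the same clones by way of hanging-drop embryoid bodies, were then expanded on gelatin with EGF and Fgf2, and the study describes them as heterogeneous cultures, so a bulk value is an average over the cell types present. RNA was turned into cDNA from polyadenylated transcripts with the SMART-Seq v4 kit. Because the table columns carry no replicate numbers, libraries are named S01, S02 and S03 (mESC) and S04, S05 and S06 (CPCC).

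A protein destined for secretion or for a membrane is threaded through the Sec61 channel while it is being made, its signal peptide is cut off by signal peptidase, and it is folded by chaperones such as BiP (Hspa5) and by disulfide isomerases. COPII coats then bud vesicles that carry it towards the Golgi, and COPI coats return escaped ER residents. When unfolded proteins accumulate, the unfolded protein response, with ATF6 and XBP1 among its transcription factors, raises the transcription of many of these genes, and CREB3L1 and CREB3L2 do so in cells that secrete much matrix, such as bone and cartilage cells.

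ATF6 acts, together with the factor NF-Y, on the ER stress element, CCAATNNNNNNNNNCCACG, in the promoters of ER chaperone genes. RefSeq promoter windows on GRCm38.p6, from 250 bases before to 50 bases after each start, were matched for 49 of the 57 members and searched on both strands. The element was found in 5 members (10.2%), against 0.205% of the 9748 tested genes with a window. The stretches that hold it are printed here. Of these 5, Hspa5, Hsp90b1, Calr and Canx were chosen for the group by name. Only exact matches were counted, so a window without one, as in Pdia4 or Xbp1, does not show that the gene lacks stress regulation. Capitals mark the 2 conserved blocks, CCAAT and CCACG or their reverse complements, and each stretch runs 5′ to 3′ on the strand of its gene.

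Hspa5, chr2:34772000-34772068, plus strand: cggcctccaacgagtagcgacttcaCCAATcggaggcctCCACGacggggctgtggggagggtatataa
Hsp90b1, chr10:86705508-86705681, minus strand: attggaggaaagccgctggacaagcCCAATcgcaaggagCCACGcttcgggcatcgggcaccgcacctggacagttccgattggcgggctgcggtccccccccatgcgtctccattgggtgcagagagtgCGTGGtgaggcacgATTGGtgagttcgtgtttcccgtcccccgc
Calr, chr8:84847050-84847118, minus strand: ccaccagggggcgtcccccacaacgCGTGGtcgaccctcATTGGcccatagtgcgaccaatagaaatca
Canx, chr11:50325775-50325843, minus strand: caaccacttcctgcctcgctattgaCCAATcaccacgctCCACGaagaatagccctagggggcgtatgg
Pdia6, chr12:17266466-17266534, plus strand: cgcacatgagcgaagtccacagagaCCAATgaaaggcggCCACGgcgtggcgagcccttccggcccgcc

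In Hspa5 the element spans bases 65 to 47 before the start, in Canx bases 145 to 127 and in Pdia6 bases 98 to 80, all in the forward orientation. In Calr it lies in reverse at bases 162 to 144. Hsp90b1 holds 1 forward copy at bases 212 to 194 and 1 reverse copy at bases 107 to 89.

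Before any gene is compared, S03 and S04 stood somewhat apart from the other libraries of their cell type, and in the same members. Over the 56 members listed for both cell types, the deviation of S03 from the mean of S01 and S02 and that of S04 from the mean of S05 and S06, on log2(CPM + 0.5), had a correlation of 0.72. The same correlation was 0.35 over the 8689 genes above 5 CPM, and the deviation of S01 from S02 correlated with that of S04 at 0.16 over the members. These correlations are across genes, share the normalization and carry no test. In S04, 13 members lay more than 1.5-fold above the mean of S05 and S06, led by Tmed5 (3.50-fold), Sec24a (2.70-fold) and Sec23a (2.13-fold), and in S03 6 members lay more than 1.5-fold above the mean of S01 and S02. Values for these genes are therefore also given without S03 and S04, which was decided on after their values had been looked at. Because S03 and S04 were left out for standing apart, the spread in that fit is reduced by the choice itself. Its adjusted p-values are therefore likely too small, and a call gained only there is given as description.

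**Figure D1:**
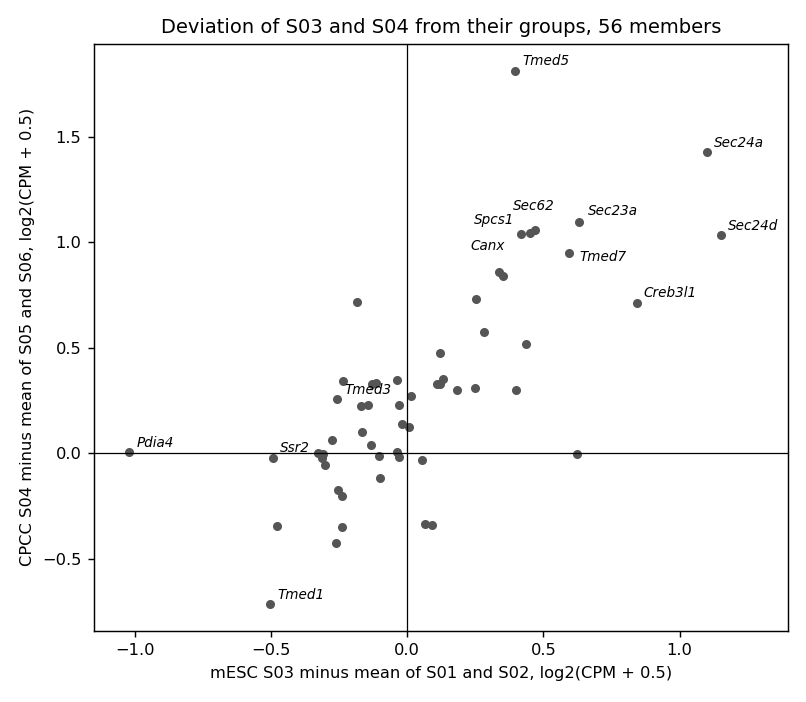
Deviation of mESC library S03 from the mean of S01 and S02 (x axis) and of CPCC library S04 from the mean of S05 and S06 (y axis), both as differences of log2(CPM + 0.5), for 56 members, 1 point per gene. Sec24a, Sec24d and Sec23a were high in both libraries and Tmed1 was low in both.

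Library totals were 6442639 to 6907330 counts in mESCs and 8468819 to 11436062 in CPCCs, and all but 3 of the tested members had a mean of at least 10 CPM in mESCs, so counting error is small for most of them. All 10 pluripotent cell markers were lower in CPCCs, where they summed to between 144 and 426 counts per 1000000, against 6440 to 6645 in mESCs. The summed level of 12 fibroblast and mesenchyme markers was 1056 to 1281 per 1000000 in mESCs and 12176 to 16776 in CPCCs. Most of the mESC sum was Fn1, at 937, 989 and 1135 CPM. All 7 of these markers that were tested were higher in CPCCs, and 5 (Col1a2, Col3a1, Postn, Lum and Dcn) were absent from the mESC table. The 10 endoderm markers summed to 1134 to 1275 in mESCs and 7413 to 10030 in CPCCs, although Afp and Ttr are listed in neither table. Most of the CPCC sum was Sparc (mean 7309 CPM) and Col4a1 (1655 CPM). The factor genes Sox17, Sox7, Gata6 and Foxa2 had CPCC means of only 5.20, 5.07, 18.3 and 23.3 CPM. Of 7 endoderm markers tested, 6 were higher and Sox7 was not called, and Sox17 was not tested. The 10 cardiac precursor markers summed to 4.42 to 6.36 in mESCs and 47.4 to 125 in CPCCs, with Tnnt2, a gene of the contractile apparatus, at a mean of 51.6 CPM in CPCCs and 103 CPM in S04 (log2 fold change 5.01, adjusted p = 0.000227). Of these 10 genes, 4 were tested and only Tnnt2 was called higher. Gata4, Isl1 and Pdgfra did not pass (adjusted p 0.137, 0.124 and 0.0609 by edgeR). Tbx5 was listed only for mESCs, at 1.08, 0 and 0.59 CPM, and 5 were listed only for CPCCs. The transcription factor genes Mef2c and Nkx2-5, which the mESC table does not list, had 19.3, 9.94 and 12.8 CPM and 1.59, 0 and 0.92 CPM in the CPCC libraries. The part of these cell types in the results below was not tested, and in bulk RNA a change in the share of cells that express a gene and a change in RNA per cell cannot be told apart.

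The secretory pathway genes took a larger share of the counts in every CPCC library than in any mESC library. Together they held 0.882%, 0.874% and 0.877% of all counts in the mESC libraries (in the order S01 to S03, as throughout) and 1.54%, 1.42% and 1.30% in the CPCC libraries (S04 to S06). The ratio of the means was 1.62, and the exact two-sided permutation test over libraries gave p = 0.10, the smallest that 3 against 3 libraries allow.

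Of the 56 members tested, 35 (62.5%) rose in CPCCs and 0 fell in edgeR's test (quasi-likelihood, Benjamini-Hochberg adjusted p below 0.05 over 12471 genes), and 21 did not pass the threshold. Over all genes tested, 31.7% rose and 29.7% fell. At an unadjusted p under 0.05, 38 members were higher and 0 lower, and DESeq2 also called 0 lower. A rise of at least 2-fold was called in 22 members (39.3%), against 25.5% of all genes. In 39 members (69.6%) every CPCC library lay above every mESC library, against 35.3% of all genes, and in none did every CPCC library lie below. The median log2 fold change was 0.73 over the members, with quartiles of 0.34 and 1.33, and 0.03 over all genes, with quartiles of -0.84 and 1.14. Without S03 and S04, 38 members rose, 1 (Ssr2) fell and the median was 0.65. With 1 library left out at a time the count of higher members lay between 27 (without S01) and 38 (without S06).

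**Figure D2:**
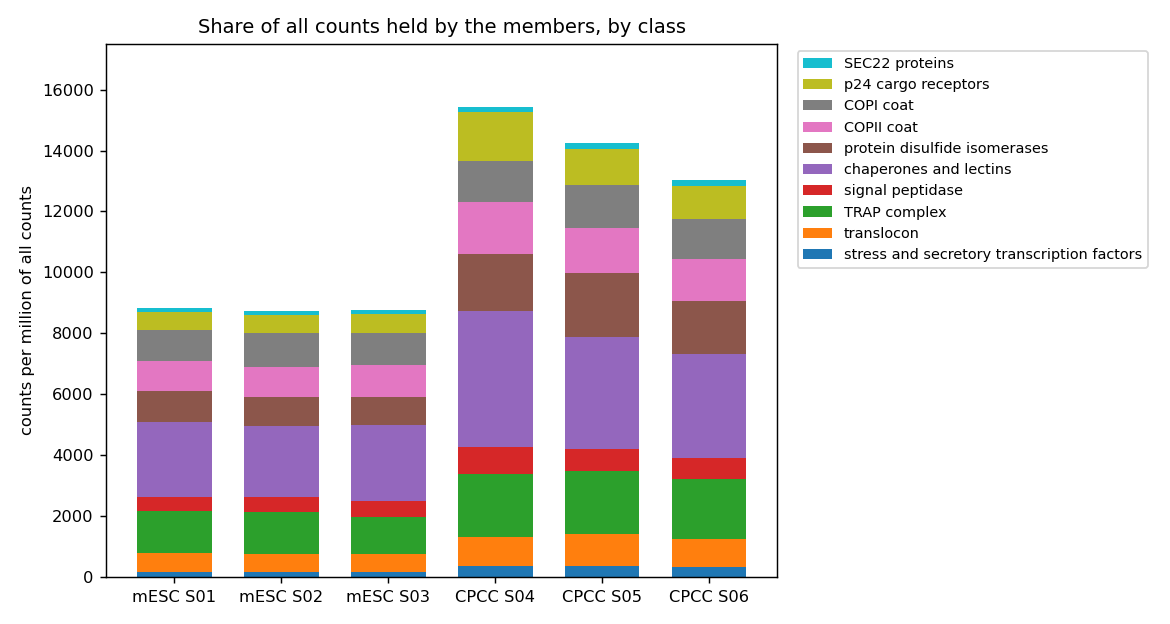
Counts per 1000000 of all counts held by the 57 members in each library, stacked by class. The mESC bars reach between 8738 and 8817 and the CPCC bars between 13030 and 15446, and every class is taller in each CPCC library than in each mESC library.

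The ratio of summed counts per 1000000, CPCC mean over mESC mean, was 2.21 for the p24 cargo receptors, 2.17 for the transcription factors and 1.99 for the disulfide isomerases. It was 1.60 for the translocon, 1.58 for chaperones and lectins, 1.55 for the TRAP complex, 1.54 for signal peptidase and 1.52 for the COPII coat. The smallest ratios were those of the SEC22 proteins, 1.39, and the COPI coat, 1.25. In all 10 classes the libraries of the 2 cell types did not overlap, and each exact permutation p was 0.10. Differences between classes were not tested.

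**Figure D3:**
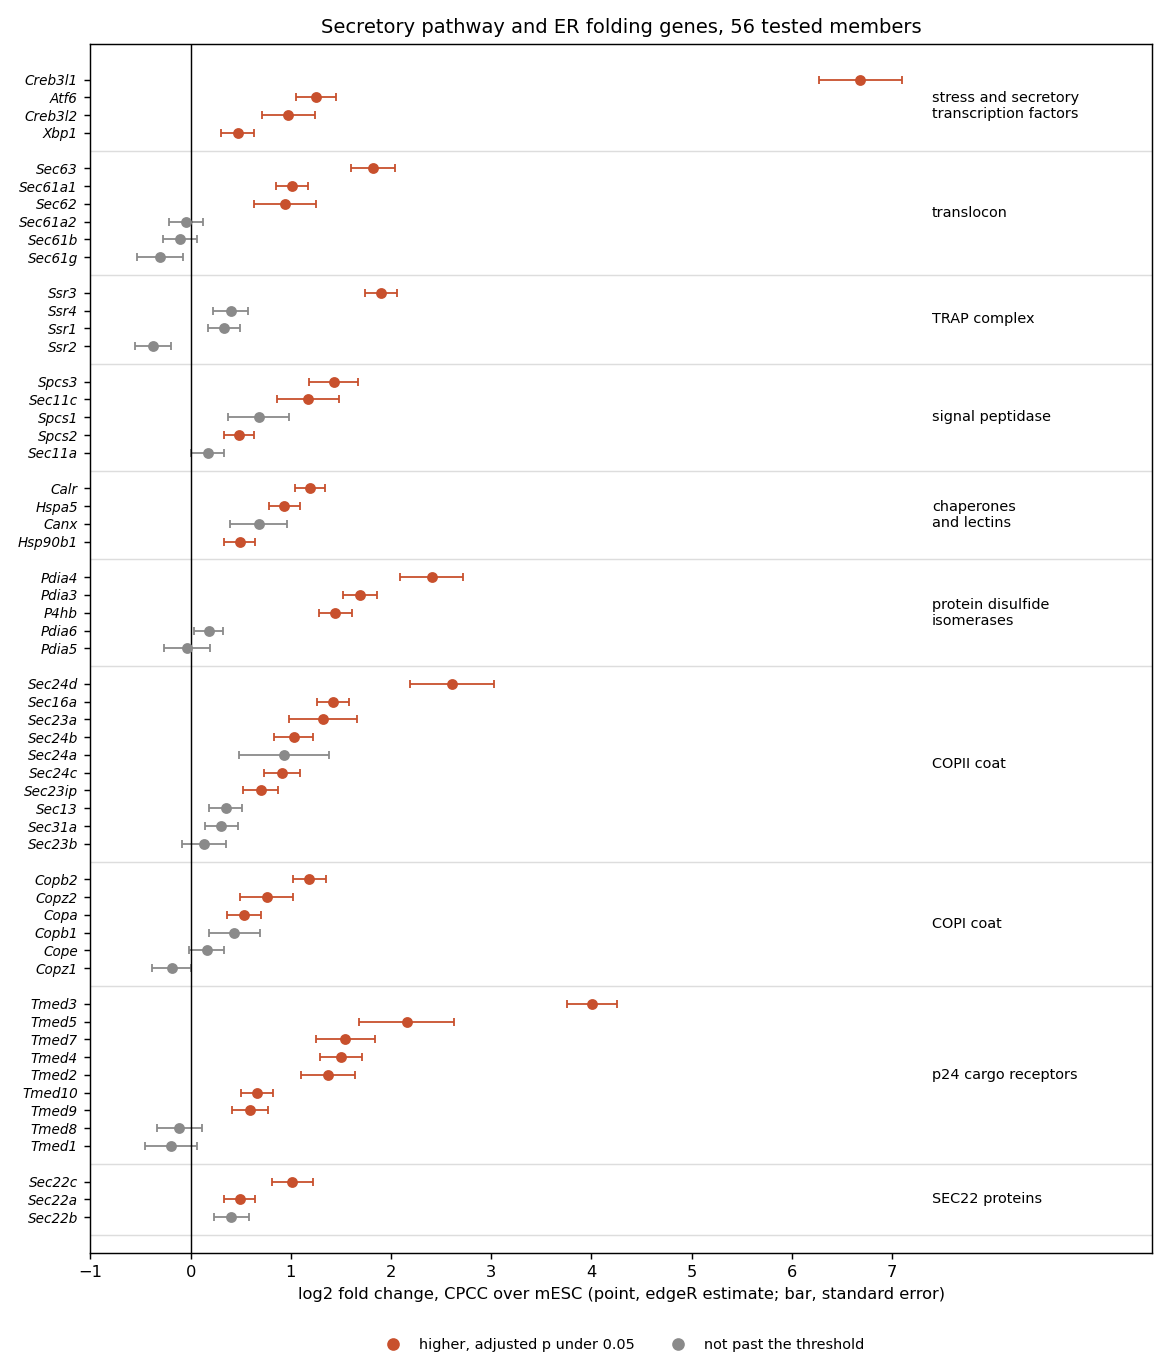
Log2 fold change of CPCCs over mESCs (x axis; point, edgeR estimate; bar, SE) for 56 members, grouped by class, with members past an adjusted p of 0.05 in red and the others in grey. The red points are all to the right of 0, and Creb3l1 at 6.68 and Tmed3 at 4.01 lie farthest out.

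All 4 transcription factors among the members rose, by very different amounts. Creb3l1 (chromosome 2, 91982328 to 92024171), a membrane-bound factor that is cut in the Golgi to release its active part, had 0.77, 0.44 and 1.46 CPM in mESCs against 125.9, 85.7 and 68.5 in CPCCs. The mESC values rest on 5, 3 and 10 counts, which makes the size of the change imprecise, while the CPCC libraries held 1267, 707 and 598. The log2 fold change was 6.68 (standard error, SE, 0.41, adjusted p = 3.90e-06 by edgeR), and all CPCC libraries lay far above all mESC libraries. Without S03 and S04 it was 6.97.

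Its close relative Creb3l2 had 22.4, 15.0 and 13.0 CPM in mESCs against 27.9, 35.0 and 36.1 in CPCCs, a log2 fold change of 0.97 (SE 0.26, adjusted p = 0.0102). Per kb of exon, Creb3l1 made up 13.1% ± 8.92 (SD, n = 3) of the sum of the pair in mESCs and 87.7% ± 4.40 in CPCCs, so the more abundant of the pair was Creb3l2 in mESCs and Creb3l1 in CPCCs (exact permutation p = 0.10). Atf6, the stress sensor that is itself cut to become a transcription factor, had 46.7, 37.5 and 38.6 CPM in mESCs against 112, 102 and 77.5 in CPCCs (log2 fold change 1.25, SE 0.20, adjusted p = 0.000646). Xbp1 changed least of the 4. It had 102, 97.8 and 104 CPM in mESCs against 137, 163 and 120 in CPCCs, with no overlap, and a log2 fold change of 0.47 (SE 0.17, adjusted p = 0.0364). The table gives 1 value per gene, so the spliced form of the Xbp1 transcript, which encodes the active factor, was not measured. The Xbp1 call was lost without S01, S02, S03 or S05, with adjusted p between 0.0696 and 0.148.

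Translocation into the ER divided the members. The pore-forming subunit Sec61a1 (chromosome 6, 88503607 to 88518801) had 260, 274 and 226 CPM in mESCs against 462, 579 and 489 in CPCCs, and rose by 1.01 on the log2 scale (SE 0.16, adjusted p = 0.000609). Its smaller partners did not pass the test, with log2 fold changes of -0.11 for Sec61b and -0.31 for Sec61g, and neither did the second alpha subunit Sec61a2, at -0.05. Sec61a1 accounted for 68.7% ± 3.36 of the 2 alpha subunits per kb in mESCs and 82.1% ± 1.50 in CPCCs (SD, n = 3 each). The libraries of the cell types did not overlap in this share.

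Sec62 and Sec63, which form a complex with the channel and, with BiP, serve proteins that are imported after translation, were both higher. Sec63 (chromosome 10, 42761496 to 42832515) had 44.2, 45.2 and 54.4 CPM in mESCs against 216, 158 and 133 in CPCCs, a log2 fold change of 1.82 (SE 0.22, adjusted p = 0.000123). Sec62 had 47.4, 43.7 and 63.2 CPM in mESCs against 151, 74.2 and 70.7 in CPCCs, with most of the excess in S04. The fitted log2 fold change was 0.94 (SE 0.31, adjusted p = 0.0254) with all libraries 0.51 (adjusted p = 0.0364) without S04 alone and 0.68 (adjusted p = 0.00343) without S03 and S04. It missed the threshold without S01 or S02 (adjusted p 0.0869 and 0.0926).

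Of the 4 subunits of the translocon-associated protein (TRAP) complex, which helps particular signal peptides to open the channel, 1 was called. Ssr3, the gamma subunit (chromosome 3, 65379657 to 65392554), had 300.0, 309 and 331 CPM in mESCs against 1348, 1141 and 1010 in CPCCs. Its log2 fold change of 1.90 (SE 0.16, adjusted p = 1.75e-05) contrasts with 0.33 for Ssr1 and 0.40 for Ssr4, whose adjusted p-values were 0.102 and 0.0721. Ssr1 was at 0.32 (adjusted p = 0.033) without S03 and S04, and Ssr4 passed with at least 10 counts in every library. The beta subunit Ssr2 had 684, 694 and 490 CPM in mESCs against 474, 539 and 428 in CPCCs, so that mESC S03 lay below CPCC S05. The log2 fold change of Ssr2 was -0.37 (SE 0.18, adjusted p = 0.101), -0.52 (adjusted p = 0.0329) without S03 and -0.50 (adjusted p = 0.00508) without S03 and S04. Per kb, Ssr2 made up 70.2% ± 3.80 of the 4 subunits in mESCs and 44.9% ± 2.83 in CPCCs, while Ssr3 made up 11.9% ± 2.39 and 35.9% ± 3.16 (SD, n = 3 each). Both shares were apart in every library, with an exact permutation p of 0.10.

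Signal peptidase, the membrane enzyme that removes signal peptides, has the alternative catalytic subunits Sec11a and Sec11c and the accessory subunits Spcs1 to Spcs3. Spcs3 rose most, from 74.9, 102 and 104 CPM in mESCs to 343, 193 and 220 CPM in CPCCs (log2 fold change 1.43, SE 0.25, adjusted p = 0.00100). Without S03 and S04 it rose by 1.23 on the log2 scale (adjusted p = 7.59e-05). Sec11c had 7.26, 9.27 and 7.17 CPM in mESCs against 24.3, 15.0 and 14.1 in CPCCs, a log2 fold change of 1.17 (SE 0.31, adjusted p = 0.00979), and 0.82 (adjusted p = 0.0441) without S03 and S04. The more abundant Sec11a was at 0.17 (adjusted p = 0.393). The share of Sec11c in the 2 catalytic subunits per kb was 8.98% ± 0.74 in mESCs and 16.5% ± 4.17 in CPCCs. Spcs2 had 110, 125 and 109 CPM in mESCs against 159, 164 and 157 in CPCCs (log2 fold change 0.48, SE 0.15, adjusted p = 0.0206). That call was lost without S01, S03 or S05 (adjusted p 0.0579 to 0.0924). Spcs1, which shares exon bases with Glt8d1, did not pass (0.68, adjusted p = 0.0803), except without S06 (0.92, adjusted p = 0.0202) and without S03 and S04 (0.42, adjusted p = 0.0360).

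Among the folding factors, 3 of the 4 general chaperones and lectins and 3 of the 5 disulfide isomerases rose. Hspa5 (chromosome 2, 34772090 to 34776530), which encodes the ER HSP70 BiP, had 643, 631 and 526 CPM in mESCs against 1179, 1243 and 1022 in CPCCs. The 3 CPCC libraries were close together and all above the mESCs, and the log2 fold change was 0.94 (SE 0.15, adjusted p = 0.000740). Hsp90b1 (chromosome 10, 86690841 to 86705445), the ER HSP90, had 734, 728 and 713 CPM in mESCs against 1185, 1002 and 865 in CPCCs (log2 fold change 0.49, SE 0.16, adjusted p = 0.0218). Its libraries did not overlap, but the call was lost without S01, S02, S03 or S05, where the adjusted p lay between 0.0543 and 0.0794.

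Calreticulin and calnexin are the lectins that hold glycoproteins while they fold, the first soluble and the second anchored in the membrane. Calr (chromosome 8, 84842088 to 84846932) had 185, 180 and 165 CPM in mESCs against 446, 402 and 360 in CPCCs, a log2 fold change of 1.19 (SE 0.15, adjusted p = 0.000186). Canx (chromosome 11, 50293957 to 50325674) had 898, 796 and 1131 CPM in mESCs against 2290, 1162 and 1068 in CPCCs. The S04 value was about 2.05-fold the mean of S05 and S06, and S06 lay below mESC S03. Its log2 fold change of 0.68 (SE 0.29) had an adjusted p of 0.0669 with all libraries. It was 0.26 (adjusted p = 0.149) without S04, 0.88 (adjusted p = 0.0228) without S06, and 0.41 (adjusted p = 0.00766) without S03 and S04. The 5 members with an ER stress element in the promoter had a median log2 fold change of 0.68, beside 0.66 for the 43 tested members with a window and no element.

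The disulfide isomerases spanned the range. Pdia4 (chromosome 6, 47796141 to 47813513), also known as ERp72, had 17.0, 19.1 and 8.63 CPM in mESCs against 78.0, 96.6 and 62.5 in CPCCs, a log2 fold change of 2.41 (SE 0.31, adjusted p = 0.000192). Pdia3, the partner of calnexin and calreticulin, had 151, 137 and 128 CPM in mESCs against 495, 473 and 378 in CPCCs (1.69, SE 0.17, adjusted p = 4.30e-05). P4hb (chromosome 11, 120560304 to 120572937), which encodes protein disulfide isomerase itself and is also the beta subunit of the collagen prolyl hydroxylase, had 363, 363 and 324 CPM in mESCs against 990, 1071 and 798 in CPCCs. Its log2 fold change was 1.45 (SE 0.16, adjusted p = 8.36e-05). These 3 genes did not overlap between the cell types in any library. Pdia6 had 446, 401 and 418 CPM in mESCs against 508, 497 and 428 in CPCCs, with S06 below mESC S01, and its log2 fold change of 0.18 did not pass (adjusted p = 0.307). Pdia5 was at -0.04 (adjusted p = 0.904). Pdia3 shares exon bases with Catsper2 and Pdia6 with Atp6v1c2, and the sources used here do not say whether counting used the strand.

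**Figure D4:**
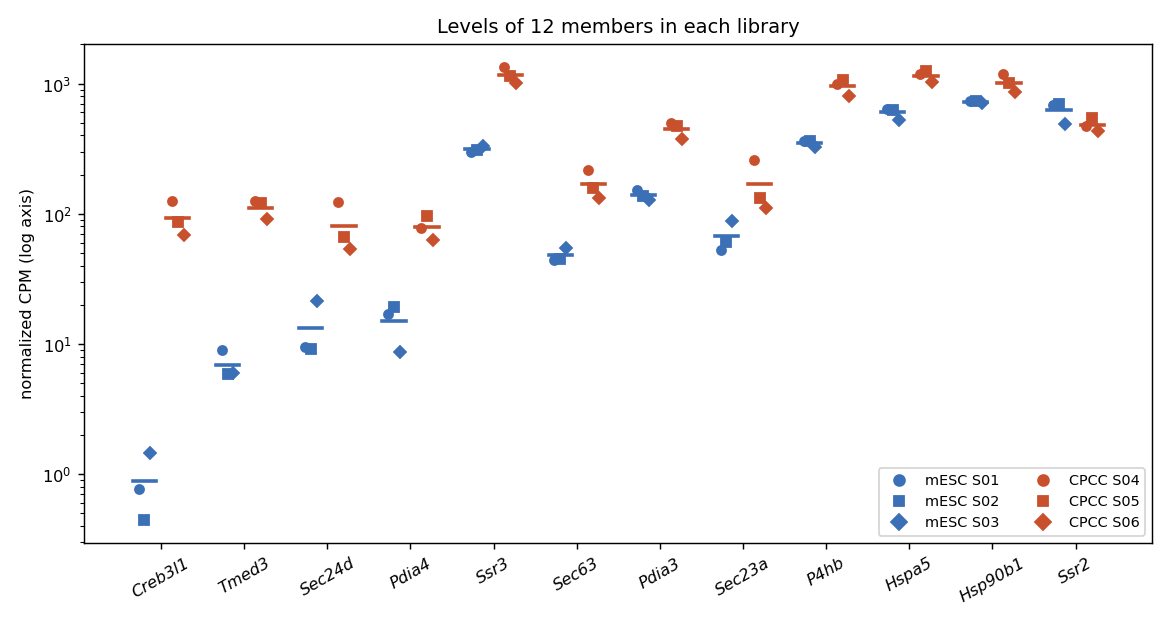
Normalized CPM (log axis) of 12 members in each library; blue points are mESC libraries, red points CPCC libraries, and the short lines are group means. Creb3l1 and Tmed3 are separated by the widest gaps, S04 is highest for Sec24d and Sec23a, and only Ssr2 has overlapping groups.

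Levels of different genes were compared per kb of exon (normalized CPM divided by the exon length from GENCODE M21). In mESCs the highest were Ssr2 at 482, Hsp90b1 at 257, Sec61b at 252, Canx at 219.8 and Pdia6 at 194 CPM per kb. In CPCCs they were Ssr2 at 372, Hsp90b1 at 360.2, Canx at 352, P4hb at 333 and Hspa5 at 306 CPM per kb. P4hb thus went from the rank of 9 to 4, and Ssr3 from 17 to 6. At the low end, Creb3l1 was the lowest of the 56 in mESCs at 0.34 CPM per kb and had 35.9 in CPCCs. Differences between neighbours in this order were not tested.

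COPII coat genes rose in 6 of 10 tested. The coat is built from an inner layer of Sec23 and Sec24, of which Sec24 picks the cargo, and an outer cage of Sec13 and Sec31, on exit sites organised by Sec16. Sec24d (chromosome 3, 123267496 to 123365637) had 9.42, 9.12 and 21.2 CPM in mESCs against 123, 66.7 and 53.5 in CPCCs. S03 was the highest mESC library and S04 the highest CPCC library, and the groups were still far apart. The fitted change was 2.61 on the log2 scale (SE 0.42, adjusted p = 0.000655), and 2.70 (adjusted p = 1.84e-06) without S03 and S04.

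The other cargo adaptors changed less, with 1.03 for Sec24b (adjusted p = 0.00148) and 0.91 for Sec24c (adjusted p = 0.00182). Sec24a had 29.5, 26.0 and 60.0 CPM in mESCs against 126, 43.9 and 49.6 in CPCCs, so its groups overlapped, and its log2 fold change of 0.93 had an adjusted p of 0.101. It was 0.29 (adjusted p = 0.420) without S04, and passed without S03 (1.40, adjusted p = 0.0426) and without S03 and S04 (0.76, adjusted p = 0.00536). Per kb, Sec24d went from 7.74% ± 2.88 of the 4 adaptors in mESCs to 20.6% ± 4.84 in CPCCs, and Sec24b went from 42.7% ± 1.18 to 38.6% ± 3.05 (SD, n = 3). Both shares were without overlap between the cell types (exact permutation p = 0.10).

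The Sec23 paralogs were likewise unequal. Sec23a (chromosome 12, 58958384 to 59012018) had 52.8, 60.8 and 88.0 CPM in mESCs against 260.0, 133 and 111 in CPCCs, a log2 fold change of 1.32 (SE 0.33, adjusted p = 0.00763). Without S04 it was 0.87 (adjusted p = 0.00316), and without S03 and S04 1.11 (adjusted p = 0.000105). Its paralog Sec23b had a log2 fold change of 0.13 (adjusted p = 0.614). Sec23a therefore held 27.3% ± 3.65 of the pair per kb in mESCs and 44.9% ± 5.96 in CPCCs, reaching 51.6% in S04. The libraries did not overlap, and the exact permutation p was 0.10.

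Sec16a (chromosome 2, 26409431 to 26445217) was the steadiest of the coat genes among replicates. It had 42.8, 44.6 and 43.9 CPM in mESCs against 124, 121 and 107 in CPCCs (log2 fold change 1.42, SE 0.16, adjusted p = 8.76e-05). Its relative Sec16b is listed only for CPCCs, at 24, 23 and 17 counts or 2.39, 2.79 and 1.95 CPM, at least 5.30-fold above 3 counts per mESC library. Sec23ip, which binds Sec23 at exit sites, rose by 0.70 on the log2 scale (adjusted p = 0.00680). The cage genes did not pass, with 0.35 for Sec13 (adjusted p = 0.0938, but 0.0340 without S06) and 0.31 for Sec31a (adjusted p = 0.128).

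A shorter motif was examined after these fold changes were seen, and is therefore only described. TGACGTGG, a core of the unfolded protein response element to which XBP1 and ATF6 bind, was found in the windows of 5 members (10.2%), against 1.03% of tested genes. These were Sec24d, Sec23a, Sec16b, Copb1 and Copb2, all of them coat genes. The site of Sec24d lies at bases 26 to 19 before the RefSeq start, and is shown with the motif in capitals because Sec24d changed most within the coat.

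Sec24d, chr3:123267459-123267488, plus strand, GRCm38.p6: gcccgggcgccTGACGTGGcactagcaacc

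The shorter core ACGTG, which TGACGTGG contains, was in the windows of 31 members (63.3%) and of 29.7% of tested genes. CCAAT alone, which is part of the ER stress element, was in 53.1% of members and 43.7% of tested genes. Members with ACGTG had a median log2 fold change of 0.84, with 19 of 30 tested called higher, and those without had 0.47, with 9 of 18. These medians were not tested against each other. Creb3l1, Atf6, Sec61a1, Spcs3, Ssr2, Sec11c, Tmed2 and Tmed7 were not matched to a window.

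**Figure D5:**
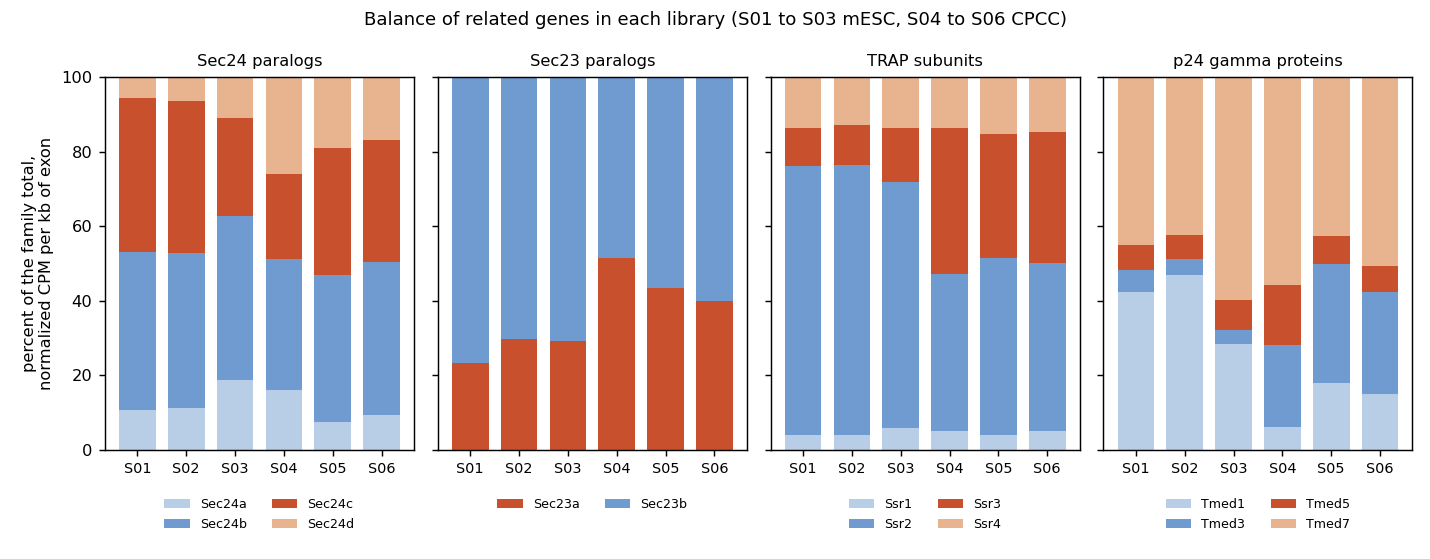
Share of each gene in its family in each library, as percent of the summed normalized CPM per kb of exon, for the Sec24 adaptors, Sec23 paralogs, TRAP subunits and p24 gamma proteins. From S01 to S03 (mESC) to S04 to S06 (CPCC), Sec24d, Sec23a, Ssr3 and Tmed3 have larger shares, and Sec23b, Ssr2 and Tmed1 smaller ones.

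The p24 proteins are membrane cargo receptors that travel in COPII and COPI vesicles, and 7 of the 9 Tmed genes rose. Tmed3 (chromosome 9, 89699203 to 89705044) had 8.96, 5.88 and 6.00 CPM in mESCs against 124, 120.1 and 90.4 in CPCCs. Its log2 fold change of 4.01 (SE 0.25, adjusted p = 4.05e-06) was the second largest of all members, and it was 3.83 without S03 and S04. Tmed5 had 57.3, 52.2 and 72.1 CPM in mESCs against 516, 161 and 133 in CPCCs, so S04 stood far above the other CPCC libraries. In the fit this gave a log2 fold change of 2.16 (SE 0.48, adjusted p = 0.00369), 1.30 (adjusted p = 5.10e-05) without S04 and 1.44 (adjusted p = 1.25e-05) without S03 and S04. Tmed7 had 109, 95.6 and 154 CPM in mESCs against 513, 260.1 and 272 in CPCCs (1.54, SE 0.30, adjusted p = 0.00183), and 1.39 (adjusted p = 5.72e-06) without S03 and S04.

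The gamma subfamily is represented among the members by Tmed3, Tmed5, Tmed7 and Tmed1. Within these genes, Tmed3 went from 4.68% ± 1.18 of the summed CPM per kb in mESCs to 22.0%, 32.0% and 27.3% in the 3 CPCC libraries. The share of Tmed1 went from 39.2% ± 9.59 to 13.0% ± 6.07 (SD, n = 3 each), both without overlap. Tmed1 itself had a log2 fold change of -0.20 (adjusted p = 0.537). Of the remaining family, Tmed4 was at 1.50, Tmed2 at 1.37, Tmed10 at 0.66 and Tmed9 at 0.59, and each passed the test. Tmed2 was at 1.15 (adjusted p = 0.000106) without S03 and S04. The Tmed9 call was lost without S01, S03 or S05 (adjusted p 0.0540 to 0.0696). Tmed8, one of the members high in S03, was at -0.11 (adjusted p = 0.676), and at 0.14 (adjusted p = 0.531) without S03 and S04. Tmed5 shares exon bases with Mtf2, Tmed7 with Ticam2 and Tmed1 with Dnm2, which makes the values of these 3 genes less certain.

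COPI coat genes serve the return route from the Golgi, and 3 of the 6 rose. Copb2 (chromosome 9, 98563731 to 98588376), the beta prime subunit of the outer coat, had 110, 102 and 85.1 CPM in mESCs against 224, 236 and 214 in CPCCs, a log2 fold change of 1.19 (SE 0.16, adjusted p = 0.000264). Its partner in the outer coat, Copa, had 416, 466 and 483 CPM in mESCs against 768, 656 and 551 in CPCCs (0.53, SE 0.17, adjusted p = 0.0199) and shares exon bases with Ncstn. It lost its call without S01, S02 or S05 (adjusted p 0.0541 to 0.0985). Copz2, the minor zeta subunit, had 10.4, 14.9 and 9.80 CPM in mESCs against 19.7, 22.2 and 17.4 in CPCCs. On the log2 scale the change was 0.76 (SE 0.27, adjusted p = 0.0335), and it did not pass without S01, S03 or S05 (adjusted p 0.0958 to 0.108) or without S03 and S04 (0.66, adjusted p = 0.0729). The major form Copz1 was at -0.19 (adjusted p = 0.407), and the share of Copz2 in the pair per kb was 7.84% ± 0.75 in mESCs and 14.4% ± 2.19 in CPCCs. Copb1 and Cope, at 0.43 and 0.16, did not pass, and Copb1 was at 0.23 (adjusted p = 0.168) without S03 and S04.

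The SEC22 proteins include the vesicle SNARE Sec22b, which acts in fusion between the ER and the Golgi. Sec22b itself was at 0.41 (adjusted p = 0.0692), with every CPCC library above every mESC library, and at an adjusted p of 0.0474 without S04. Sec22c had 16.8, 19.7 and 17.0 CPM in mESCs against 34.0, 40.4 and 33.8 in CPCCs (log2 fold change 1.01, SE 0.21, adjusted p = 0.00237). Sec22a had 49.3, 48.4 and 47.5 CPM in mESCs against 68.1, 71.2 and 64.5 in CPCCs. Its change was small, 0.49 (SE 0.16, adjusted p = 0.0237), with tight replicates and no overlap, and the call was lost without S01, S02, S03 or S05 (adjusted p 0.0537 to 0.0785).

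The 21 members outside the calls were spread over 9 of the 10 classes. In 4 of them (Sec13, Sec22b, Ssr1 and Ssr4) every CPCC library still lay above every mESC library, and in the other 17 the groups overlapped. Their log2 fold changes ran from -0.37 to 0.93. Of the 56 members tested, 48 had a log2 fold change above 0 and 8 below. Passing or missing the threshold does not show that a called and an uncalled paralog differ, for which the shares per kb above are the direct comparison.

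The wider pathway, given by 7 lists of 142 further genes, was also mostly higher. Of 139 tested, 87 (62.6%) rose, 9 (6.47%) fell and 43 did not pass, and the median log2 fold change was 0.75. Over all genes tested, 31.7% rose and 29.7% fell, with a median of 0.03. ER-associated degradation, which exports misfolded proteins for destruction, had the highest median, 1.33, with 17 of 20 genes higher and 1 lower. Among those that rose were the mannosidase-like Edem3 (2.14, and 1.49 without S04) and the ubiquitin ligase Syvn1 (2.00), and the gene that fell was Derl3 (-1.72). Among 40 other ER chaperones 26 rose and 1 fell, with a median of 0.97. The largest changes there were in factors known for collagen folding, Fkbp10 at 8.38 and Serpinh1 at 4.50, and in Fkbp7 at 4.46. Fkbp10 had only 0.46, 1.62 and 2.05 CPM in mESCs against 557, 523 and 326 in CPCCs, which makes the size of its change imprecise. With 1 library left out it ranged from 7.98 to 8.78. Fkbp7 had only 0.93, 1.77 and 3.51 CPM in mESCs, and its change was 5.07 without S03. Serpinh1, the collagen chaperone HSP47, had 77.4, 90.9 and 81.2 CPM in mESCs against 1931, 2176 and 1540 in CPCCs.

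Oligosaccharyltransferase genes, whose products attach sugar chains to proteins entering the ER, rose in 8 of 11 and fell in 0 (median 0.64), led by Tusc3 (2.35), Magt1 (1.86) and Krtcap2 (1.27). Other COPII and cargo export genes rose in 14 of 22 and fell in 1 (0.70), with Surf4 at 2.08, Ergic1 at 1.52 and Yipf5 at 1.28. Without S02 only 9 rose, and Yipf5 lost its call without S01 or S02 (adjusted p 0.0598 and 0.0619). Other COPI and retrieval genes rose in 11 of 20 and fell in 1 (0.60), led by the retrieval receptors Kdelr3 (2.08) and Kdelr2 (1.45) and by Arf4 (1.81). In the signal recognition list 3 of 10 genes rose and 3 fell, close to the shares over all genes tested, with a median of 0.08. It held Srprb at 1.55, Tram2 at 1.39 and Srp19 at -0.77. Without S03 or without S05 only 1 rose, and Tram2 (adjusted p 0.0541 and 0.0876) and Srp19 (adjusted p 0.0534 and 0.0565) did not pass.

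Stress sensors and stress response genes went both ways. Of 16 tested, 8 rose and 2 fell, with a median of 0.62. Creb3, a Golgi-cleaved relative of Creb3l1, rose by 3.19, from 11.5, 12.2 and 8.99 CPM in mESCs to 127, 97.2 and 73.5 CPM in CPCCs, and Atf5 rose by 1.80. The 2 that fell were Asns, the asparagine synthetase gene, at -2.67, and Atf4 at -0.51. The number that fell was 1 without S01 or S02 and 3 without S04. Asns had 1484, 1592 and 1371 CPM in mESCs against 178, 252 and 269 in CPCCs. The summed level of the list was therefore lower in CPCCs, at 1370 to 1608 counts per 1000000 against 2742 to 2937 in mESCs, opposite in sign to its median.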

How the data were processed

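Bulk RNA-seq of 3 mESC and 3 CPCC libraries was used. The authors deposited estimated counts of reads per gene in 1 table per cell type, neither normalized nor split by allele. In 18 members some values are not whole. The submitters' processing notes name STAR 2.7 and the build mm10; the counter and its use of strand are not given in the sources used here. The end position of 32 members is 1 base past that of RefSeq. Groups came from the table names and the labels, and the columns carry no replicate numbers. Libraries of 1 cell type came from separate clones or the cultures made from them, as far as the study's methods say.

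Counts were rounded. The 13001 genes in both tables were filtered by filterByExpr, which removed 530, and 12471 were fitted with edgeR 4.0.16 in R 4.3.3 (TMM, quasi-likelihood test, Benjamini-Hochberg adjustment over all genes tested, threshold 0.05). CPM values are TMM-normalized. Bounds for genes in 1 table were computed against 3 counts per library and cover counting error only. Summed shares used whole library totals and exact permutation tests. Exon lengths are unions of GENCODE M21 exons, and 8 members share exon bases with another coding gene. Alternatives were DESeq2 1.42.0, upper-quartile factors, library totals, no filter, at least 10 counts in every library, genes in either table with missing genes at 0, and each library left out. Leaving out S03 and S04 together and the motif TGACGTGG were added after values were seen. The fit was tested on simulated counts.

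Members and lists were chosen with earlier results of these data known. Genes named are the 9 members chosen by name, up to 3 members per class and 3 genes per further list with the largest change past the threshold, and members in 1 table only; 1 gene that this rule would name is not reported here. Other members and the further genes that fell are named after their values were seen. Of the 142 further genes, 2 (Ern2 and Creb3l3) are in neither table and 3 were matched by an older symbol.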

Additional observations from a re-analysis of the deposited data

How the results depend on the processing

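No paired analysis was possible because the table columns carry no replicate numbers, although the CPCCs were made from the mESC clones. The number of members higher in CPCCs was 35 with DESeq2, with upper-quartile factors, with library totals and with no filter, 38 with at least 10 counts in every library, 36 over genes in either table, and 27 to 38 with each library left out. In 26 members the call held in every one of these fits. The number lower was 0 to 1 with each library left out and 1 without S03 and S04, in each case Ssr2. The median log2 fold change ranged from 0.60 to 0.90 with a library left out. Of 29 fitted members that the naming rule picked, 20 kept their call and sign in all 13 alternatives and 0 changed sign. Creb3l1 kept its call and sign in every alternative in which it was fitted. Calls of Copa, Copz2, Hsp90b1, Sec22a, Sec62, Spcs2 and Xbp1 were lost in some fits without 1 library, and Canx passed with at least 10 counts in every library (0.75), without S06 (0.88) and without S03 and S04 (0.41). With each library left out, the other COPII list had 9 to 15 genes higher and 1 to 2 lower, signal recognition 1 to 4 higher, the stress list 1 to 3 lower, and other ER chaperones 1 to 2 lower. Without S03 and S04, other ER chaperones had 3 lower and other COPII genes 2 lower. Why these counts moved was not tested, beyond the smaller number of libraries in each such fit. Counts of 10 or fewer in mESCs limit the size given for Creb3l1, which the filter of 10 counts in every library removed.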
